A study of Arabidopsis thaliana with 6 samples.

Results

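The late embryogenesis abundant (LEA) protein genes of Arabidopsis thaliana were followed through 6 RNA-seq libraries made from falling amounts of total RNA. Members were taken by locus as the 51 genes of the family, which are 0.152% of the gene models in the count tables, and the rule that takes them uses no measured value. They fall into 9 classes by protein domain: 10 dehydrins, 3 LEA_1, 3 LEA_2, 4 LEA_3, 18 LEA_4, 2 LEA_5, 6 SMP (seed maturation protein), 2 AtM and 3 PvLEA18 genes. The plants were untreated wild type grown in a greenhouse. The labels give the tissue as seed, whereas the study's methods describe Col-0 plants and whole cotyledons, cut by laser from paraffin sections of seeds with embryos at the linear stage. According to these methods, all amounts were dilutions of the same RNA sample, whereas the design text of the series speaks of biological replicates. Whether the 5 ng library holds the same RNA was not tested, and each ratio of 5 ng to 100 pg below is a difference between 2 libraries, not shown to be an effect of the amount. The amounts were 10, 25, 50, 75 and 100 pg and, highest, 5 ng, with 1 library each, built from poly(A)-selected RNA with the SMART-Seq v4 kit and read in pairs without strand information. No amount could therefore be tested against another, and the spread between plants was not measured. The methods also place the 5 ng library on a first sequencing date and the other 5 on a second. They add that the 100 pg sample was run on both dates to correct for the date, and that only its second run was kept. That correction was not repeated here, so that amount and date cannot be told apart for 5 ng in these 6 libraries.

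LEA proteins are small, very hydrophilic proteins, many of them without a fixed fold in water. They accumulate in embryos as seeds mature and dry, and several are also made in leaves under cold, drought or abscisic acid. In developing Arabidopsis embryos, genes of this family are switched on in steps, under the regulators ABI3, FUS3 and LEC2 and basic leucine zipper factors such as ABI5 and EEL, while cold induction runs through the CBF factors.

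Between 22403342 and 51130296 read pairs were counted per library, and the 5 ng library stood apart from the others. At 5 ng, 9 storage protein genes took 59.4% of the read pairs, against 0.00012 to 0.00175% in the other 5 libraries. The composition factors of the TMM method were 0.306 at 5 ng and between 1.07 and 1.41 elsewhere. Levels below are CPM, the usual depth-scaled read pair count, after this scaling (normalised CPM). Of 10 endosperm markers, 7 were detected at 5 ng and 6 or 7 elsewhere, with summed levels of 2606 normalised CPM at 5 ng and 108 to 198 elsewhere. FWA and PHE1 of this list had no pair in any library. MYB118, from which the paper proposes a probable endosperm contamination of its epidermis samples, was at 3.33 normalised CPM at 5 ng and 3.97 to 45.2 elsewhere. EPR1, an extensin-like gene of the endosperm, gave 2600 of the 2606 normalised CPM, while the endosperm genes ZOU and ALE1 were at 2.18 and 0.128 against 26.9 to 122 and 33.1 to 70.2 elsewhere. Of the 8 endosperm markers with a pair at 5 ng or 100 pg, 1 was at least 4-fold higher and 3 lower at 5 ng. Over all 21008 genes with a pair in either library, 13.4% were higher and 16.7% lower by this measure. Of 9 seed coat markers, 5 were detected at 5 ng and 3 to 6 elsewhere, summing to 190 normalised CPM at 5 ng and 32.4 to 103 elsewhere, and TT10, a laccase of the seed coat, was at 140 against 0 pairs in the other 5. The seed coat regulator TTG2 went the other way, at 4.48 against 16.8 to 37.2 normalised CPM. The 8 markers of embryo epidermis and cotyledon, of which 7 or 8 were detected in each library, summed to 3916 normalised CPM at 5 ng and 2718 to 4171 elsewhere. PDF1, an epidermal gene, made up most of these sums, with 3418 normalised CPM at 5 ng and 2188 to 3532 elsewhere, whereas AS1 and PHB, regulators of leaf polarity, were lowest at 5 ng, at 19.96 and 19.1 against 71.8 to 97.0 and 38.2 to 142. Of the 7 seed coat markers with a pair at 5 ng or 100 pg, 2 were at least 4-fold higher and 1 lower at 5 ng. Of the 8 markers of embryo epidermis and cotyledon, 0 were at least 4-fold higher and 2 lower. The part of these 3 lists in the LEA levels was not tested. In bulk RNA, fewer cells of a type and less RNA per cell cannot be told apart.

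The stretch before the transcript start is shown for 4 members whose levels the comparison of 5 ng with 100 pg turns on. AT2G21490 and AT3G15670 had the highest ratios of a dehydrin and of a LEA_4 gene, and EM1 and EM6 are the LEA_5 pair that went opposite ways. Each is 250 bases long, 5′ to 3′ on the strand of the gene, from RefSeq's TAIR10.1 assembly and models: AT2G21490 at chr2:9207126-9207375 on the minus strand, AT3G15670 at chr3:5310989-5311238 on the minus strand, EM1 (AT3G51810) at chr3:19214472-19214721 on the plus strand and EM6 (AT2G40170) at chr2:16780369-16780618 on the minus strand. Capitals mark 3 motifs on either strand: ACGTG, the core of the abscisic acid response element (ABRE) bound by basic leucine zipper factors; CCGAC, the core of the dehydration response element (DRE) bound by CBF and DREB factors; and CATGCA, the core of the RY element bound by B3 factors such as ABI3, FUS3 and LEC2.
AT2G21490: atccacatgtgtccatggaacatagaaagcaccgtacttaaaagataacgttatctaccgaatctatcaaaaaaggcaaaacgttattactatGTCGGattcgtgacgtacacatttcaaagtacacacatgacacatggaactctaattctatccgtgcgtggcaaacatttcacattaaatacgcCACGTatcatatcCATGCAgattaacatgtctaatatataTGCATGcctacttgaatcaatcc
AT3G15670: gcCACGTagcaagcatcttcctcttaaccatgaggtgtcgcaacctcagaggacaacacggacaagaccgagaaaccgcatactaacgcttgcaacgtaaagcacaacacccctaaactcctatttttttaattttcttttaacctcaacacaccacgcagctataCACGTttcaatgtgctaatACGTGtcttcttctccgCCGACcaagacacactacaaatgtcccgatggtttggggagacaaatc
EM1: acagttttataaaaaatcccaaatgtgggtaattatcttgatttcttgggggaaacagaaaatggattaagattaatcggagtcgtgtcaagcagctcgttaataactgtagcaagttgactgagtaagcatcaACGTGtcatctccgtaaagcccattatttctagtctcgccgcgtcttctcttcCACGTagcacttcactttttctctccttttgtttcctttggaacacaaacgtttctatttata
EM6: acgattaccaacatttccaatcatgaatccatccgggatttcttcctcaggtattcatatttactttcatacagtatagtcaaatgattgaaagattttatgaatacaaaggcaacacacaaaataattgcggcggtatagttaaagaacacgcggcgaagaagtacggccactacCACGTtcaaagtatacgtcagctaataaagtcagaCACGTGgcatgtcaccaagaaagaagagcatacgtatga

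The ABRE core lay in the 250 bases before the start in 36 of the 51 members (70.6%), against 22.1% of 32826 genes with such a window. A palindromic match holds the core on both strands and was counted on each. By this count, 29 members (56.9%) had 2 or more matches, against 8.18% of all genes with such a window. AT3G53040, a LEA_4 gene, had the most of the members with 7. The DRE core was found in 18 members (35.3%) against 12.6% of all genes, and LTI30, a cold-inducible dehydrin, had 3 matches. The RY core was found in 9 of the 51 members against 8.68% of all genes, and AT2G33690 and AT4G39130 had 3 matches each. In 500 bases before the start codon, which do not depend on the transcript start, the shares were 82.4, 54.9 and 31.4% of members against 34.5, 23.5 and 14.4% of 26710 genes. A match is a description of these letters and not a binding site. The models of the reference differ from those of the count tables, with the same length in 11 of the 51 members and a length within 50 bases in 25.

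**Figure D1:**
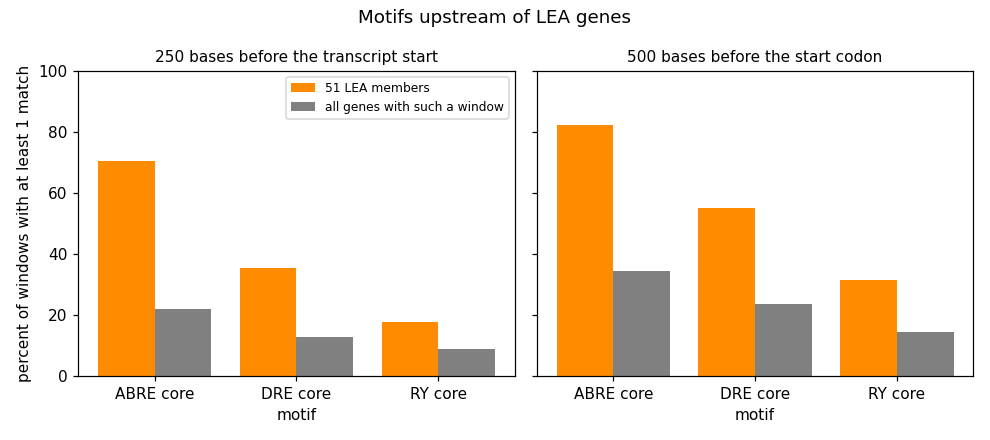
Percent of windows with at least 1 match to the ABRE, DRE or RY core on either strand, for the 51 LEA members (orange) and all genes with such a window (grey), in 250 bases before the transcript start (left) and 500 bases before the start codon (right). The ABRE core stood in 70.6% and 82.4% of members against 22.1% and 34.5% of all genes.

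With at least 1 read pair, 33 members were detected in the 10 pg library and 35, 38, 42 and 38 in those of 25, 50, 75 and 100 pg, while the 5 ng library had 36. These are 64.7 to 82.4% of the family, against 47.4 to 58.1% of all gene models, with exact 95% Clopper-Pearson intervals at 5 ng of 56.2 to 82.5%. In all 6 libraries 27 members were detected, against 38.0% of all gene models, and 16 reached at least 10 normalised CPM in every library, as did 13.3% of all gene models. No pair was counted in any library for 6 members, namely the LEA_4 genes AT2G03740, AT4G13230 and UNE15, the LEA_3 gene AT3G53770, the AtM gene M17 and the PvLEA18 gene AT2G33690. A count of 0 allows up to 3 pairs, which is 0.192 normalised CPM at 5 ng and 0.0689 to 0.105 in the other libraries, counting error alone. COR15A, COR15B, EM6 and AT4G36600 were at 0 pairs at 5 ng but were detected in each of the other 5. The reverse held for M10, with 15 pairs, and AT5G53260, with 19 pairs, which were detected only at 5 ng. How many of all gene models were absent only at 5 ng, or present only there, was not counted.

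**Figure D2:**
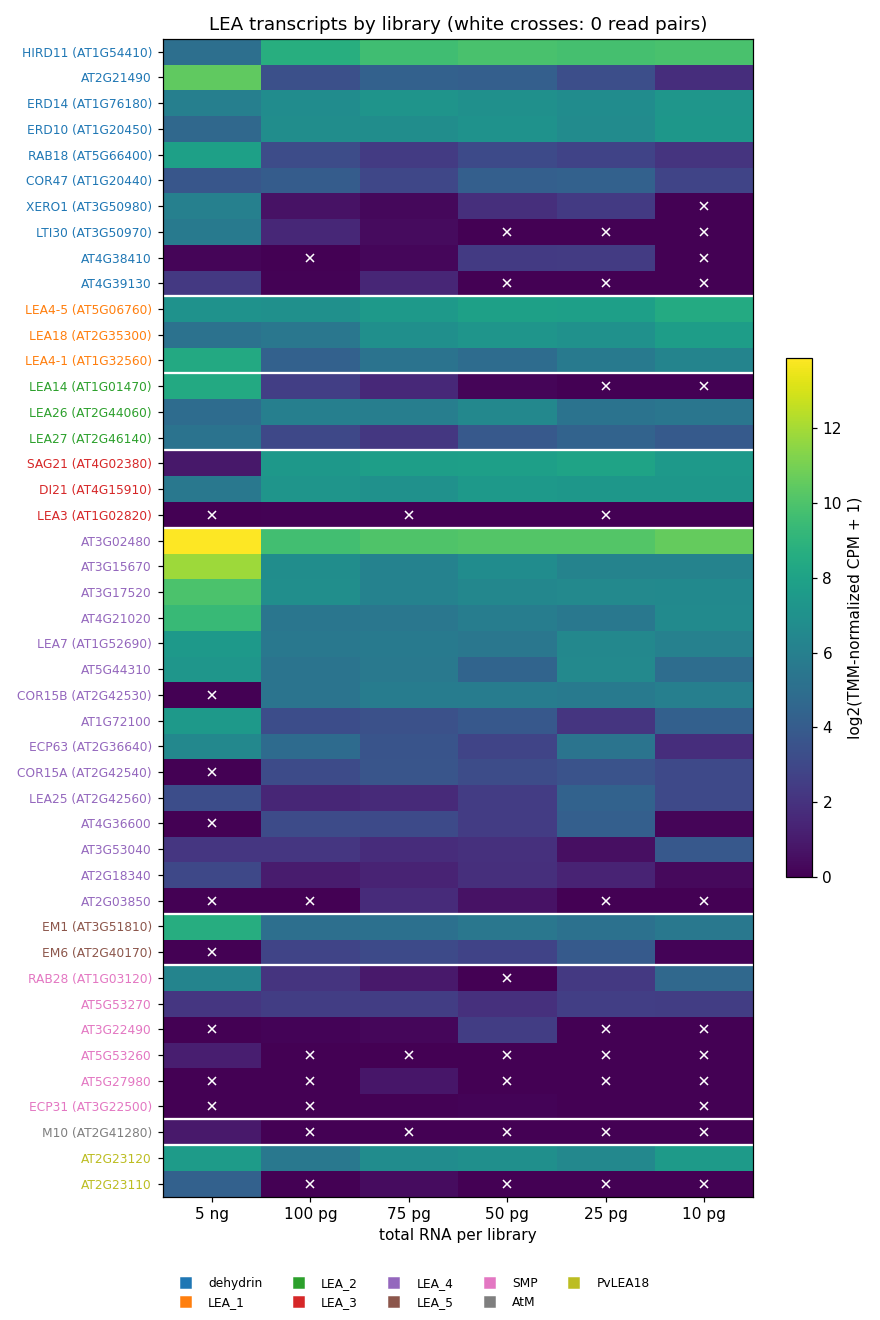
Colour gives log2(normalised CPM + 1) of the 45 LEA members with a pair in any library (rows, labels coloured by class, within each class by mean level) at each RNA amount (columns), with white crosses at 0 pairs. AT3G02480 reached 14884 normalised CPM at 5 ng, and COR15A, COR15B, EM6 and AT4G36600 were at 0 there and detected in the other 5 libraries.

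The family took 0.741% of all read pairs in the 5 ng library and 0.491, 0.461, 0.515, 0.462 and 0.368% in those of 10, 25, 50, 75 and 100 pg. A single LEA_4 gene, AT3G02480, gave 61.4% of the family's pairs at 5 ng and 29.0 to 33.4% in the other libraries. By pairs it ranked 14 among all genes at 5 ng and between 42 and 70 elsewhere. Without AT3G02480 the share at 5 ng was 0.286%, within the 0.251 to 0.366% of the other 5. These are shares of all pairs, of which storage protein and oleosin genes took 68.0% at 5 ng and at most 0.100% elsewhere. After TMM scaling, the members other than AT3G02480 summed to 9368 normalised CPM at 5 ng, against 1778 to 3049 elsewhere. Per kb of gene model, AT3G02480 stood at 33149 normalised CPM at 5 ng, followed by AT3G15670 at 3522 and AT2G21490 at 1697. At 100 pg the order per kb was AT3G02480 at 1837 normalised CPM, the dehydrin HIRD11 at 557 and the LEA_3 gene SAG21 at 245. At 10 pg, AT3G02480 at 3407 and HIRD11 at 1306 normalised CPM per kb led as they did at 100 pg, followed by the LEA_1 genes LEA18 at 430 and LEA4-5 at 412. With 1 library each, no spread exists against which to set neighbours in this order.

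**Figure D3:**
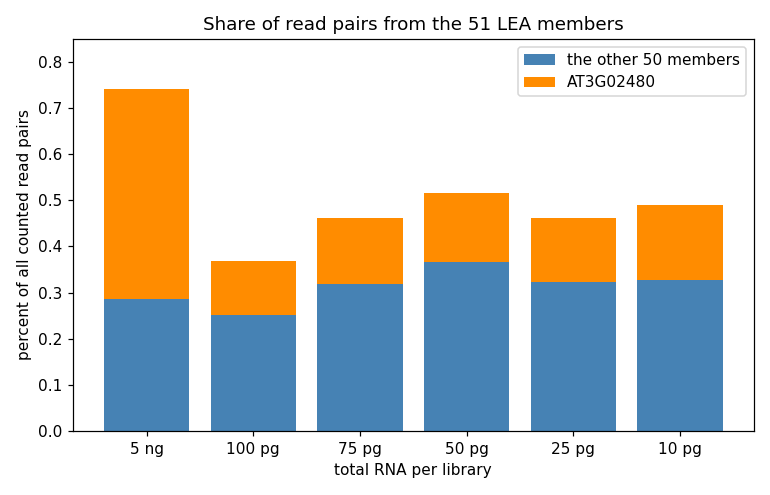
Percent of all counted read pairs that came from the LEA family at each RNA amount, split into AT3G02480 (orange) and the other 50 members (blue). AT3G02480 gave 61.4% of the family's pairs at 5 ng, and the rest of the family lay between 0.251 and 0.366% in every library. Storage protein and oleosin genes took 68.0% of all pairs at 5 ng and at most 0.100% elsewhere.

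Dehydrins carry lysine-rich repeats and protect membranes and enzymes during water loss, and they split in these libraries. AT2G21490 stood at 1419 normalised CPM at 5 ng and at 9.26, 18.5, 17.37, 9.08 and 2.52 at 100, 75, 50, 25 and 10 pg. RAB18, the abscisic acid-responsive dehydrin, stood at 233 normalised CPM at 5 ng and at 8.41, 4.23, 7.75, 6.02 and 3.28 in the same order of amounts. XERO1 had 64.7 normalised CPM at 5 ng and 0.574, 0.231, 2.60, 4.05 and 0 in the smaller amounts. In all 3 dehydrins the 5 ng library was far above the other 5. LTI30, the neighbour of XERO1 on chromosome 3, had 49.4 normalised CPM at 5 ng, 1.93 at 100 pg and 0.330 at 75 pg, with no pair at 50, 25 or 10 pg. HIRD11, a histidine-rich dehydrin that binds metal ions, went the other way, with 32.8 normalised CPM at 5 ng and 406, 786, 953, 888 and 951 from 100 to 10 pg. ERD14, an acidic dehydrin, had 61.4 normalised CPM at 5 ng and 105, 142, 122, 106 and 157 in the other 5, so that its lowest value was again at 5 ng. ERD10, also acidic, had 24.5 normalised CPM at 5 ng and 100 to 159 elsewhere, and its neighbour COR47 had 11.8 at 5 ng within its range of 6.18 to 19.1 elsewhere. AT4G38410 was at 4.05 and 4.28 normalised CPM at 50 and 25 pg and at most 0.165 elsewhere. AT4G39130 was at 3.97 normalised CPM at 5 ng, 1.85 at 75 pg and at most 0.0689 in the other 4.

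In the LEA_4 class, whose members form amphipathic helices on drying, AT3G02480 had 14884 normalised CPM at 5 ng and 825, 1057, 1126, 1144 and 1530 at 100, 75, 50, 25 and 10 pg. AT3G15670 had 3593 normalised CPM at 5 ng and 110, 68.5, 108, 72.8 and 71.4 in the same order. AT3G17520 had 967 normalised CPM at 5 ng and 113, 69.4, 84.1, 90.3 and 96.0. The smaller amounts of these 3 genes lay close together and well under 5 ng. COR15A and COR15B, cold-induced proteins of the chloroplast stroma that lie side by side on chromosome 2, showed the opposite. COR15B had no pair at 5 ng and 39.3, 56.4, 54.8, 51.9 and 62.4 normalised CPM from 100 to 10 pg, and COR15A had no pair at 5 ng and 7.86, 11.5, 8.49, 10.8 and 7.23. In TAIR10.1 the model of COR15B, which is longer there than in the count tables, overlaps AT2G42520 on the other strand by 468 bases, and 22.9% of its 50-base windows lie in that gene's transcript. Without strand information, reads of that stretch cannot be told apart. AT4G36600 had no pair at 5 ng, then 8.09, 7.53, 4.49, 17.64 and 0.140 normalised CPM from 100 to 10 pg. ECP63, named after a carrot embryogenic cell protein, was at 87.7 normalised CPM at 5 ng and 27.6, 11.2, 6.18, 38.9 and 2.55 in the smaller amounts, without order by amount. The other 8 LEA_4 genes with a pair ranged from AT4G21020, at 645 normalised CPM at 5 ng and 42.7 to 99.3 elsewhere, down to AT2G03850, which had 70 pairs at 75 pg, 23 at 50 pg and none in the other libraries.

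EM1 and EM6 are the only LEA_5 genes, encoding Em proteins that gather late in seed maturation. EM1 had 393 normalised CPM at 5 ng and 33.0, 33.5, 44.3, 35.3 and 46.2 from 100 to 10 pg. EM6 had no pair at 5 ng and 6.11, 7.53, 5.99, 14.2 and 0.105 normalised CPM in the other 5. At 5 ng the pair thus stood at 6136 and 0 read pairs.

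Among the LEA_1 genes, LEA4-5 stood at 133 normalised CPM at 5 ng and 122, 181, 234, 223 and 353 from 100 to 10 pg. LEA18 stood at 36.4 normalised CPM at 5 ng and 44.5, 118, 151, 126 and 209 in the same order. LEA4-1 stood at 340 normalised CPM at 5 ng and 18.5, 37.7, 28.7, 49.6 and 75.0. All 3 were highest at 10 pg and lowest at 100 pg among the 5 smaller amounts. In the LEA_2 class, whose proteins are folded, LEA14 had 336 normalised CPM at 5 ng, 4.89 at 100 pg, 2.05 at 75 pg and 0.131 at 50 pg, with no pair at 25 and 10 pg. LEA26 (AT2G44060) had 28.5 normalised CPM at 5 ng and 62.8, 60.3, 89.3, 37.4 and 42.8 from 100 to 10 pg. LEA27 (AT2G46140) had 37.4 normalised CPM at 5 ng and 7.10, 3.70, 13.5, 19.96 and 14.3. LEA14 was thus the member of its class whose level fell step by step with the amount.

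The LEA_3 class held the lowest ratio of the family. SAG21, a mitochondrial protein induced by senescence and oxidative stress, had 0.832 normalised CPM at 5 ng (13 read pairs) and 170, 219, 223, 263 and 175 from 100 to 10 pg. DI21, a drought-induced gene, had 46.2 normalised CPM at 5 ng and 149, 130, 171, 160 and 160 in the other 5. LEA3 (AT1G02820) had 2 read pairs at 100 pg, 1 at 50 pg, 1 at 10 pg and none elsewhere. Of the SMP genes, RAB28 had 75.0 normalised CPM at 5 ng and 3.19, 0.925, 0, 3.997 and 24.6 from 100 to 10 pg. AT5G53270, the SMP gene detected in all 6 libraries, had 3.58 normalised CPM at 5 ng and 4.69, 4.79, 2.76, 4.91 and 4.65 in the other 5. AT3G22490 had 0.0919, 0.198 and 4.63 normalised CPM at 100, 75 and 50 pg and no pair at 5 ng, 25 pg or 10 pg, and the other 3 SMP genes with a pair had at most 24 pairs in any library. AT2G23120 of the PvLEA18 class had 194 normalised CPM at 5 ng and 46.4, 107, 119, 87.5 and 189 from 100 to 10 pg. Its neighbour AT2G23110 had 290 pairs at 5 ng, 11 at 75 pg and none elsewhere. AT2G23120 also overlaps AT2G23118 on the other strand by 144 bases.

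Between 5 ng and 100 pg, and after TMM scaling, more LEA members stood higher than lower at 5 ng, led by the dehydrin AT2G21490 and LEA14, while SAG21, COR15B and HIRD11 stood lowest. On the log2(normalised CPM + 1) scale, 42 members had a pair in either library, and 17 were at least 4-fold higher at 5 ng, against 13.4% of the 21008 genes with a pair. At least 4-fold lower were 7 members, against 16.7% of these genes. The median member ratio was 1.71 on the log2 scale, against -0.07 over all genes. The largest ratios were 7.11 for AT2G21490, 5.84 for LEA14, 5.38 for XERO1, 5.02 for AT3G15670 and 4.63 for RAB18. The smallest were -6.54 for SAG21, -5.33 for COR15B, -3.59 for HIRD11, -3.18 for AT4G36600 and -3.15 for COR15A. Against the limit of 3 pairs, the level of COR15B was at least 205-fold lower at 5 ng than at 100 pg, that of AT4G36600 at least 42.1-fold, that of COR15A at least 40.9-fold and that of EM6 at least 31.8-fold. Of the dehydrins 5 were called higher and 2 lower, and of the LEA_4 genes 5 higher and 3 lower. These counts depend on the scaling. Without TMM factors, 9 of 42 members were at least 4-fold higher and 13 lower, against 4.16% and 42.0% of all genes. The median member ratio was then -0.02 against -1.57 over all genes, and AT2G23120 turned from 2.04 to -0.14.

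Set against all 5 smaller amounts, 13 members were at 5 ng at least 4-fold above the highest of them, and 4 were at least 4-fold below the lowest. The backgrounds were 6.58% and 5.48% of 22904 genes. The 13 were LEA14, LEA4-1, AT1G72100, AT2G21490, AT2G23110, AT3G02480, AT3G15670, AT3G17520, LTI30, XERO1, EM1, AT4G21020 and RAB18. The 4 were HIRD11, COR15A, COR15B and SAG21. Without TMM factors, 6 of the members stood above, namely LEA14, AT2G21490, AT2G23110, AT3G15670, LTI30 and RAB18. Below stood 10, among them HIRD11, COR15A, COR15B, SAG21, ERD10, ERD14 and DI21. The share of all genes outside this range was not computed without TMM factors. Against 100 pg alone, 4.16% of all genes were then at least 4-fold higher and 42.0% lower at 5 ng. Of the 17 members called higher at 5 ng than at 100 pg, 15 had the ABRE core in the 250 bases before the start. So had 4 of the 7 called lower, 15 of the 18 in between and 2 of the 9 with no pair in either library. The core was in 36 of all 51 members and in 22.1% of all genes with such a window. Its share among all genes called higher or lower was not counted, and a link to the calls was not tested.

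**Figure D4:**
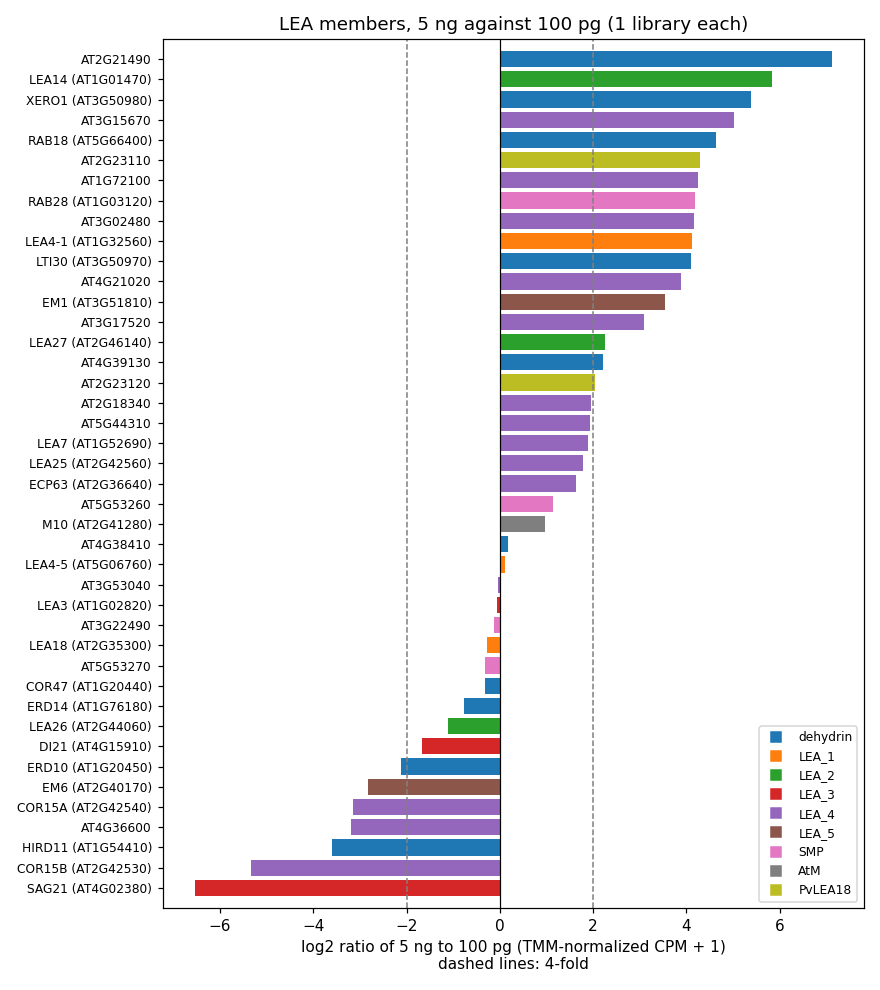
Bars give the log2 ratio of 5 ng to 100 pg of normalised CPM + 1 for the 42 LEA members with a pair in either library, coloured by class, with dashed lines at 4-fold (1 library per amount, no error bars). AT2G21490 lay highest at 7.11 and SAG21 lowest at -6.54, with 17 members past the upper line and 7 past the lower line.

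Genes known to act with the family were counted from fixed lists. Over all 21008 genes with a pair at 5 ng or 100 pg, 13.4% were at least 4-fold higher and 16.7% lower at 5 ng. Of 21 regulators of LEA genes, 20 had a pair at 5 ng or 100 pg, and 4 were at least 4-fold higher and 9 lower at 5 ng. Higher were the basic leucine zipper genes EEL, at 427 normalised CPM at 5 ng against 18.6 at 100 pg, BZIP67 at 109 against 9.03 and AREB3 at 161 against 22.5, and L1L, a LEC1-related subunit of NF-Y, at 178 against 1.42. The 9 lower were LEC1, LEC2, ABF1, ABF2, ABF3, ABF4, CBF1, CBF2 and CBF3, with LEC2, ABF4, CBF1 and CBF2 at 0 pairs at 5 ng. The maturation regulator ABI3 was at 87.5 normalised CPM at 5 ng and 17.5 to 44.9 elsewhere, FUS3 at 69.1 and 90.6 to 162, and ABI5 at 9.85 and 17.64 to 42.0. Among 6 other cold and drought response genes, KIN1 was the 1 called higher at 5 ng, at 109 normalised CPM against 18.4. RD29A, at 0.192 against 107, and COR413PM1, at 13.3 against 198, were called lower. Of 12 other desiccation genes 11 had a pair in either library, with 5 called higher and 1 lower at 5 ng. The peroxiredoxin PER1 was at 5462 normalised CPM against 7.12, the dormancy gene DOG1 at 329 against 0, the stachyose synthase STS at 158 against 0 and the small heat shock gene HSP17.4 at 146 against 0.0689. RS5, a raffinose synthase, went the other way, from 5.05 at 100 pg to 0 pairs at 5 ng. All 9 storage protein genes and all 5 oleosin genes were called higher at 5 ng. The calls on these lists are given only after TMM scaling, with factors of 0.306 at 5 ng and 1.41 at 100 pg. Before it, ABI3 had 1368 read pairs at 5 ng and 1956 at 100 pg, and KIN1 had 1708 and 802. The totals were 51130296 and 30781753 pairs.

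Among the 5 smaller amounts, which share a sequencing date, 7 of the 38 members with a pair at 10 or 100 pg differed at least 4-fold between these ends. At least 4-fold higher at 10 pg were 3, against 6.59% of 19923 genes, namely RAB28 at 2.61, LEA18 at 2.21 and AT2G23120 at 2.01 on the log2 scale. At least 4-fold lower were 4, against 20.7% of these genes, namely ECP63 at -3.01, AT4G36600 at -2.99, EM6 at -2.69 and LEA14 at -2.56. The median member ratio was 0.02, against -0.11 over all genes. AT2G21490, at -1.54, was next among members with at least 10 CPM. Without TMM factors RAB28 alone stayed at least 4-fold higher and 4 members were lower, against 4.61% and 24.8% of all genes. A pseudocount of 5 CPM left 1 member higher and 1 lower, against 3.07% and 5.69% of all genes.

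**Figure D5:**
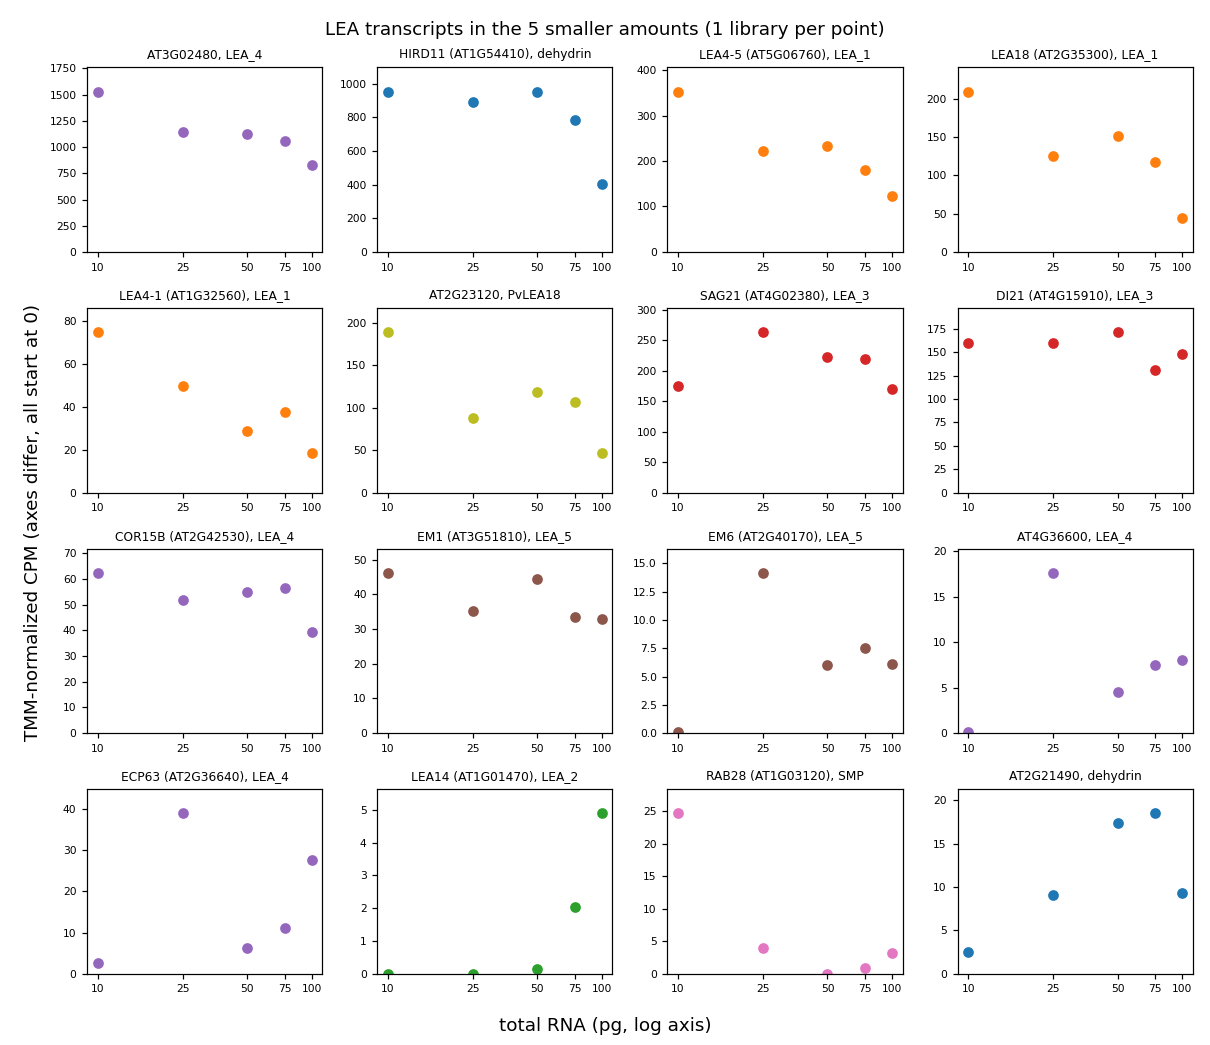
Normalised CPM (y axes differ and start at 0) against the total RNA in pg (log axis) for 16 members, 1 library per point. DI21 lay between 130 and 171 and SAG21 between 170 and 263, the LEA_1 genes were highest at 10 pg, and EM6, AT4G36600 and ECP63 fell at 10 pg after a maximum at 25 pg.

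Of the 38 members detected at 100 pg, 5 had no pair at 10 pg (13.2%, exact 95% Clopper-Pearson interval 4.41 to 28.1%), against 20.7% of 19266 genes. They were LEA14 with 213 pairs at 100 pg, LTI30 with 84, XERO1 with 25, AT3G22490 with 4 and AT4G39130 with 3. At 75, 50 and 25 pg, 1, 3 and 5 of the 38 had no pair (2.63, 7.89 and 13.2%), against 6.80, 10.3 and 16.8% of all genes. None of the 17 members between 10 and 100 CPM at 100 pg and none of the 9 above had 0 pairs at 10 pg, against 5.65% of 9986 and 0% of 1771 genes in these ranges, while 2 of the 8 members between 1 and 10 CPM did, against 35.7% of 4406 genes in that range. The fold between 100 and 10 pg was at least 46.7 for LEA14, at least 18.4 for LTI30 and at least 5.48 for XERO1, against the limit of 3 pairs at 10 pg. When fewer than 10 pairs were taken as lost, the count at 10 pg was 9 (23.7%), with EM6, AT4G36600, AT2G18340 and LEA3 added, against 35.5% of all genes. With 75 pg as the reference, 10 of 42 members had no pair at 10 pg (23.8%), against 21.4% of 19539 genes, so the comparison depends on the reference library.

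At least 10 pairs in any of the 5 smaller amounts were counted for 41 members, of which 10 had no pair in another of them, against 27.2% of 19059 genes. The order of the amounts did not settle this. In 5 of the 41 members, a larger amount had no pair while a smaller had at least 10, against 11.2% of the 19059 genes. RAB28 had no pair at 50 pg and 140 and 705 pairs at 25 and 10 pg. AT4G38410 had none at 100 pg, 5 at 75 pg and 154 and 150 at 50 and 25 pg. AT2G03850, AT2G23110 and AT5G27980 had none at 100 pg and 70, 11 and 24 pairs at 75 pg.

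A trend with the RNA amount was tested across the 5 smaller amounts, as the slope on its log2. With edgeR's quasi-likelihood test and 3 residual degrees of freedom, none of the 35 members tested and none of 16596 genes (0%) passed an adjusted p of 0.05, while 6 members and 2191 genes had an unadjusted p under 0.05. LEA14 had the steepest fitted slope, 4.47 ± 1.29 (SE) log2 units per doubling of the amount (edgeR, Benjamini-Hochberg adjusted p = 0.336). LEA4-5 had a slope of -0.36 ± 0.11 (SE), with the same adjusted p of 0.336. The other 4 under an unadjusted p of 0.05 were AT3G02480, LEA4-1, LEA18 and AT2G23120, each with a negative slope. DESeq2's Wald test called 1680 genes, and among them 2 members, AT3G02480 at -0.24 (adjusted p = 0.0288) and LEA4-5 at -0.39 (adjusted p = 0.0210). These p-values measure only how single libraries scatter around a line.

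The spread of the members over the 5 smaller amounts was set beside that of all genes of their level. The median SD of log2(normalised CPM + 1) was 1.17 over 12 members between 1 and 10 normalised CPM against 1.35 over all such genes, 0.60 over 14 members between 10 and 100 against 0.81, and 0.39 over 8 members between 100 and 1000 against 0.38. DI21 had the smallest SD of the members detected throughout, 0.15, with levels of 130 to 171 normalised CPM. EM1 at 0.23, COR15B, ERD14 and AT3G17520 at 0.25, and SAG21, ERD10 and COR15A at 0.26 followed. The largest were 1.76 for RAB28, 1.503 for AT4G36600, 1.43 for ECP63 and 1.42 for EM6. EM6 and AT4G36600 were at 0 pairs at 5 ng, fell to 3 and 4 pairs at 10 pg and peaked at 496 and 618 pairs at 25 pg, so that the same amounts were high and low in both.

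Several members lie beside each other, and reads could be shared only where sequences match. COR47 and ERD10, AT2G23110 and AT2G23120, COR15B and COR15A, LTI30 and XERO1, and AT5G53260 and AT5G53270 are neighbours on the same strand with no gene between them in TAIR10.1. Among these pairs, AT5G53260 shares 12.9% of its 50-base windows with AT5G53270, and AT5G53270 shares 7.53% of its own, so that their counts are uncertain where the counting dropped reads with equal hits. LEA7 and AT5G27980 overlap a gene on the other strand by 297 and 218 bases of the genome, but no 50-base window of their reference transcript lies in that gene's transcript.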

How the data were processed

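The 6 libraries, 1 per RNA amount, are tables of reads counted per gene. After trimming and removal of ribosomal reads, the authors used Bowtie2 with local alignment against TAIR10's representative gene models. The deposited raw counts hold pairs whose reads both map to a single gene, beside counts of single reads. The submitters' processing notes also name TopHat2. Pair counts sum to between 22403342 and 51130296 per library. The sequencing date correction of the study was not repeated.

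TMM factors and CPM were computed with edgeR 4.0.16 in R 4.3.3, and log2 values are of normalised CPM plus 1. Called means at least 4-fold (2 on the log2 scale). A gene was detected with at least 1 pair, and a count of 0 was given the limit of 3 counts. Slopes on log2 of the amount were fitted with edgeR's quasi-likelihood test over the genes with at least 1 CPM in at least 2 of 5 libraries, with Benjamini-Hochberg adjustment at 0.05, after the script had been tested on simulated data. An alternative test was run with DESeq2 1.42.0. Tables were made with pandas 2.3.3, intervals with SciPy 1.17.1 and plots with matplotlib 3.10.9, under Python 3.11.15. The intervals for members detected and lost are binomial over genes and treat the members as independent draws. They hold neither read counting error nor the spread between libraries.

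Members, classes and the 8 gene lists (80 genes, 75 matched by symbol in TAIR10.1) were chosen with earlier results of these data known, although the rule for the members is family membership alone. Named with values in every library were, in each class, the 3 members with the highest mean level, the 5 highest and 5 lowest in the ratio of 5 ng to 100 pg, the 3 highest and 3 lowest in that of 10 to 100 pg among members with at least 10 CPM in either, and any member with at least 10 CPM at 100 pg and no pair at 10 pg. Others were named after their values were seen. Promoter windows come from RefSeq's TAIR10.1, which holds 97.7% of the gene identifiers. Alternatives concerned the scaling, the pseudocount, the filter, the reference library, the count minimum, the depth, the totals, the test and each library left out.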

Additional observations from a re-analysis of the deposited data

Results flagged for a closer look

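More than 3 single reads where the same gene had no counted pair were found in 3 cases. AT3G22490, an SMP gene, had 5 single reads at 10 pg, and its neighbour ECP31 (AT3G22500), also an SMP gene, had 4 at 5 ng and 6 at 10 pg. The limit of 3 that a count of 0 allows was set on read pairs, so these single reads cannot be set against it directly. These reads did not enter the levels or the counts of members detected.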

How the results depend on the processing

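Scaling moved the comparison of 5 ng with 100 pg most. Without TMM factors, members at least 4-fold higher went from 17 to 9 and lower from 7 to 13, and AT2G23120 turned to -0.14. Over all genes the shares without TMM factors were 4.16% higher and 42.0% lower. Against the range of the 5 smaller amounts, the same scale gave 6 members above and 10 below, an alternative chosen after seeing the data. For that alternative the share of all genes was not computed. A pseudocount of 5 CPM gave 3 members lower at 5 ng than at 100 pg, against 7.23% of all genes. At 10 against 100 pg it gave 1 higher and 1 lower, against 3.07% and 5.69% of all genes. At 10 against 100 pg, 1 member was higher without TMM factors, with upper quartile factors, with 50 pg as the reference and with the median of 100, 75 and 50 pg as the reference. The shares of all genes higher were 4.61, 4.91, 7.47 and 5.04% in the same order. Taking fewer than 10 pairs as lost gave 9 of 38 members lost at 10 pg (23.7%), against 35.5% of all genes. With 75 pg as the reference, 10 of 42 members were lost (23.8%), against 21.4% of all genes. Without storage proteins and oleosins in the total, the family's share at 5 ng was 2.32%. Without AT3G02480, a choice made after seeing the data, the shares were 0.286, 0.251, 0.319, 0.366, 0.324 and 0.327% from 5 ng to 10 pg. Single reads gave 0.374% at 100 pg and 0.495% at 10 pg. DESeq2 called 2 members in the slope, against 0 with edgeR. The cause was not tested in any of these. With each of the 5 libraries left out in turn, edgeR called 0 members each time, with 2 to 8 at an unadjusted p under 0.05, and members at 0 pairs in one smaller amount and at least 10 in another numbered 7 to 10 without the 10, 25 or 75 pg library. These 3 libraries left out, the median reference and the windows before the start codon were chosen after seeing the data.

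The number of members detected stayed within 1.5 times under every count minimum and at equal depth. No paired analysis was possible because each amount has 1 library. With 1 library per amount, 3 residual degrees of freedom and a 5 ng library of another sequencing date, differences between amounts are those between single libraries. The depth limits levels under 0.192 normalised CPM at 5 ng and under 0.0689 to 0.105 elsewhere.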
